A study of Homo sapiens with 16 samples.

Results

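ETS genes encode transcription factors that share a DNA-binding fold, the ETS domain, which reads a short GGA core. The 10 described here were taken by symbol from the deposited tables: ETV1, ETV4, ETV5, ETV6, SPDEF, ELF3, EHF, ELF5, ETS1 and ETS2. They are 10 of 21453 gene symbols and hold 21 of 32062 RefSeq transcript rows. RNA-seq was run on T-47D breast and ECC-1 endometrial cancer cells, both established human lines that carry estrogen receptor alpha, after 5 days in hormone-poor medium (charcoal-treated serum, no phenol red). In each line the groups were 10 nM 17β-estradiol, 100 nM genistein (a soy isoflavone), 100 nM bisphenol A (BPA, a plastics monomer) and 0.02% DMSO as vehicle, each for 8 h. Every one of the 8 groups has 2 libraries, 16 in all, made from polyadenylated RNA without strand information. Reads of overlapping or antisense genes can therefore not be told apart. With 1 line per tissue, line and tissue cannot be told apart either.

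ETS factors differ in where they are made and in what switches them on. ETV1, ETV4 and ETV5 form the PEA3 group, known as transcriptional outputs of growth factor and ERK signalling and as activators of migration and branching genes. ETS1 and ETS2 are the founding members and are activated when ERK phosphorylates them. ELF3, EHF, ELF5 and SPDEF are epithelial members: ELF5 drives the alveolar fate of mammary cells, ELF3 and EHF belong to barrier epithelia, and SPDEF is known for secretory cells of the prostate, breast and gut. ETV6 is a repressor that is best known from leukemia gene fusions. The comparisons address which of these genes respond to estrogen receptor ligands, and how far the 2 lines differ in them.

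Levels are RPKM (reads relative to transcript length and library depth) as deposited, divided by 1 scale factor per library of 0.938 to 1.054, and called scaled RPKM below. Depth, which the files do not give, was estimated from the steps between low values at 17.31 to 29.39 M reads per library. Changes are log2 differences of scaled RPKM + 0.5 from 1 limma fit over the 13827 genes that reached 1 RPKM in 2 or more libraries, with Benjamini-Hochberg adjustment over all of them and a threshold of 0.05. The added 0.5 shrinks the differences of low genes. Of the 10 ETS genes 9 entered the fit, and ETV1 did not reach 1 RPKM in any library. The labels do not say that replicates are separate cultures, so p-values measure the spread between these libraries. The first estradiol library of each line stood apart: its median correlation with the other libraries of its line was 0.9801 in T-47D and 0.9873 in ECC-1, against 0.9893 to 0.9966 for the others. Estradiol results are therefore given with and without both. Markers fit the labelled lines: 6 of 6 luminal breast markers averaged at least 1 scaled RPKM in T-47D and 3 of 6 in ECC-1, and 5 of 5 Müllerian markers did so in ECC-1 and 0 of 5 in T-47D. Among markers of other cell types, LYZ (leukocytes) and COL1A1 (fibroblasts) averaged at least 1 in both lines, VWF (endothelium) did so in ECC-1, and the rest did not.

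In DMSO the 2 lines held different sets of ETS genes. SPDEF, EHF and ELF5 were far higher in T-47D cells, ETS1, ETS2, ETV4 and ETV5 were far higher in ECC-1 cells, and ELF3 and ETV6 differed least. SPDEF had 212 and 199.9 scaled RPKM in the T-47D DMSO libraries, against 0.174 and 0.0693 in the ECC-1 DMSO libraries. EHF had 63.9 and 80.2 in T-47D, against 4.10 and 3.77 in ECC-1. ELF5 had 71.3 and 61.1 in T-47D, against 0.265 and 0.184 in ECC-1. For each of the 3, both T-47D libraries lay above both ECC-1 libraries by an order of magnitude or more. By any margin, 46.7% of tested genes had both T-47D DMSO libraries above both ECC-1 ones. ELF3 had 39.1 and 35.7 in T-47D, against 29.9 and 28.4 in ECC-1, a small gap in the same direction.

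The log2 difference, T-47D minus ECC-1 in DMSO, was 8.38 for SPDEF (SE 0.161, limma adjusted p = 1.44e-15), 6.52 for ELF5 (SE 0.139, adjusted p = 4.23e-15) and 4.03 for EHF (SE 0.199, adjusted p = 5.87e-11). For ELF3 it was 0.35 (SE 0.129, adjusted p = 0.0219). Across all 13827 tested genes, 39.6% were higher in T-47D and 37.1% lower, so a difference between the lines was the common outcome and 4 higher and 5 lower of 9 ETS genes is not a result about the family. Genes high in 1 line only had to pass the filter through that line, so the size of the gaps, not their number, is what the data add. In bulk RNA fewer cells with a transcript and less transcript per cell cannot be told apart. The ELF3 call was lost without the first T-47D DMSO library (log2 0.29), without the first (0.39) or second (0.32) ECC-1 DMSO library, and with no scale factor (0.25).

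The promoters of SPDEF, ELF5 and EHF are printed because these 3 genes were far higher in T-47D than in ECC-1. EHF and ELF5 are next to each other among the protein-coding genes of chromosome 11 in RefSeq (GRCh38.p14), and both were high in T-47D. Each window runs from 250 bases before to 50 after the annotated start, read 5′ to 3′ on the gene's strand, and EHF has 2 starts. ETS2 follows as a gene with the opposite pattern. Capitals mark matches to a GATA or a forkhead motif on either strand, with the letters given after the windows. GATA3 and FOXA1 are factors of those types known in luminal breast cells.
SPDEF, chr6:34556280-34556579, minus strand: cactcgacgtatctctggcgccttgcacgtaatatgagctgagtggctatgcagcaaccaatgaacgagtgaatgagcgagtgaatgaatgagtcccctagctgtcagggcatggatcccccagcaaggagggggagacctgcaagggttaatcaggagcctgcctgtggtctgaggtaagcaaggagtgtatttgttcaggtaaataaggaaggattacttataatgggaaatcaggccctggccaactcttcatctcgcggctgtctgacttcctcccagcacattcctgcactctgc
ELF5, chr11:34511675-34511974, minus strand: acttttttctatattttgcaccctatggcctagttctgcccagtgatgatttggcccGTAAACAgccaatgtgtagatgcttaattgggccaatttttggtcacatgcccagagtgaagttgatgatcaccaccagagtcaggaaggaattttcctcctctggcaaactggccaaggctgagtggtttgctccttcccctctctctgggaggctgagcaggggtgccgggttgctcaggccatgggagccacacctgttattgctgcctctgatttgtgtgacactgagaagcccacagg
EHF, first start, chr11:34624007-34624306, plus strand: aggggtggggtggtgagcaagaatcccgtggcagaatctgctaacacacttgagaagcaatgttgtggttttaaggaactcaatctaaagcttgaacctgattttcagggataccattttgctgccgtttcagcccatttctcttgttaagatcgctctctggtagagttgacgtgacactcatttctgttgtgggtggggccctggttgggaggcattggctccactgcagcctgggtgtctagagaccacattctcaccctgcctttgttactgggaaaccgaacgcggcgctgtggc
EHF, second start, chr11:34632316-34632615, plus strand: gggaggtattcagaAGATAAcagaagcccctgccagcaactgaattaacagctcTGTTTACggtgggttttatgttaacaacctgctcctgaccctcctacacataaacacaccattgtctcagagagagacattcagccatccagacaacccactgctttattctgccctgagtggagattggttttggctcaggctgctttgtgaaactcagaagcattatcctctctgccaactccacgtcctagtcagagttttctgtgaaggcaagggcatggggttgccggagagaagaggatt
ETS2, first start, chr21:38804933-38805232, plus strand: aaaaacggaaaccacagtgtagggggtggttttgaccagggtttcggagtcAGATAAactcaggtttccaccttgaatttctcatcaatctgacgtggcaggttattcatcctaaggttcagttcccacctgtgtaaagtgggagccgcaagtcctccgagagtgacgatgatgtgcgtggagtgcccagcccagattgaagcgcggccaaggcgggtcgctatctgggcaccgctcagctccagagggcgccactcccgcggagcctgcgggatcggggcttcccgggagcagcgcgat

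RefSeq promoter windows were matched for 7 of the 10 genes (ETV1, ETV6, SPDEF, ELF3, EHF, ELF5 and ETS2) and searched on both strands for 5 motifs. The first-listed window of ELF5 held the forkhead motif TGTTTAC, as did 3.41% of all 27305 windows, and that of ETS2 held the GATA motif AGATAA, as did 10.5%. The second EHF window held both, but the shares cover first-listed windows only. The second ETS2 window held none of the 5 motifs, and the later ETV1 windows held the ETS core or none. The first window of ETV1 held the ETS core CCGGAA, found in 17.6% of all windows. None of the 7 first windows held the full estrogen response element GGTCANNNTGACC (0.0659% of all windows) or its half-site AGGTCA (13.9%), which can overlap the full element. These matches are letters in a short window and carry no information on binding.

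ETS1, ETS2, ETV4 and ETV5 showed the reverse picture. ETS2 had 0.510 and 0.558 scaled RPKM in T-47D DMSO libraries, against 13.5 and 15.96 in ECC-1. ETV4 had 0.0694 and 0.102 in T-47D, against 7.76 and 9.30 in ECC-1. ETV5 had 0.0486 and 0.0570 in T-47D, against 8.11 and 8.16 in ECC-1. For each of these genes both T-47D libraries lay below both ECC-1 libraries, as for 44.1% of all tested genes. ETS1 had 0.00760 and 0 in T-47D, against 3.79 and 4.46 in ECC-1, so that it was near the limit of detection in the breast line.

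The fitted differences were -3.87 for ETS2 (SE 0.135, limma adjusted p = 9.34e-13), -3.94 for ETV4 (SE 0.165, adjusted p = 7.52e-12), -3.97 for ETV5 (SE 0.127, adjusted p = 3.67e-13) and -3.19 for ETS1 (SE 0.140, adjusted p = 1.34e-11). ETV6, the repressor, had 1.72 and 1.76 scaled RPKM in T-47D against 2.91 and 2.55 in ECC-1. Its difference of -0.53 (SE 0.179, adjusted p = 0.0139) was called, and the call was lost without the first T-47D DMSO library (-0.52) or the first ECC-1 DMSO library (-0.45). ETV1 had 0.0383 and 0.0657 in T-47D against 0.318 and 0.300 in ECC-1, under 1 RPKM in both lines. In a fit with no filter its difference was -0.55 (adjusted p = 1.95e-05).

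For the genes near 0, RPKM values are whole multiples of 1 read, which allowed the reads behind them to be recovered (largest distance from a whole number 0.032 read). ETS1 rested on 1 read in the T-47D DMSO libraries together, against 1135 reads in the ECC-1 DMSO libraries. Scaled for depth, the ratio of ECC-1 to T-47D was 927, with an exact 95% counting interval of 166 to 36600. For ETV5 it was 157 (82.3 to 343, from 9 and 1725 reads) and for ETV4 105 (53.2 to 244, from 8 and 1031 reads). For ETV1 it was 6.22 (3.47 to 12.1, from 13 and 99 reads). In the other direction, the ratio of T-47D to ECC-1 was 1840 for SPDEF (1030 to 3680, from 16523 and 11 reads) and 309 for ELF5 (211 to 473, from 6563 and 26 reads). These intervals cover counting error only. Over all 4 treatments, T-47D libraries held 0 to 4 reads of ETS1, 1 to 5 of ETV5, 3 to 12 of ETV4 and 1 to 8 of ETV1.

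**Figure D1:**
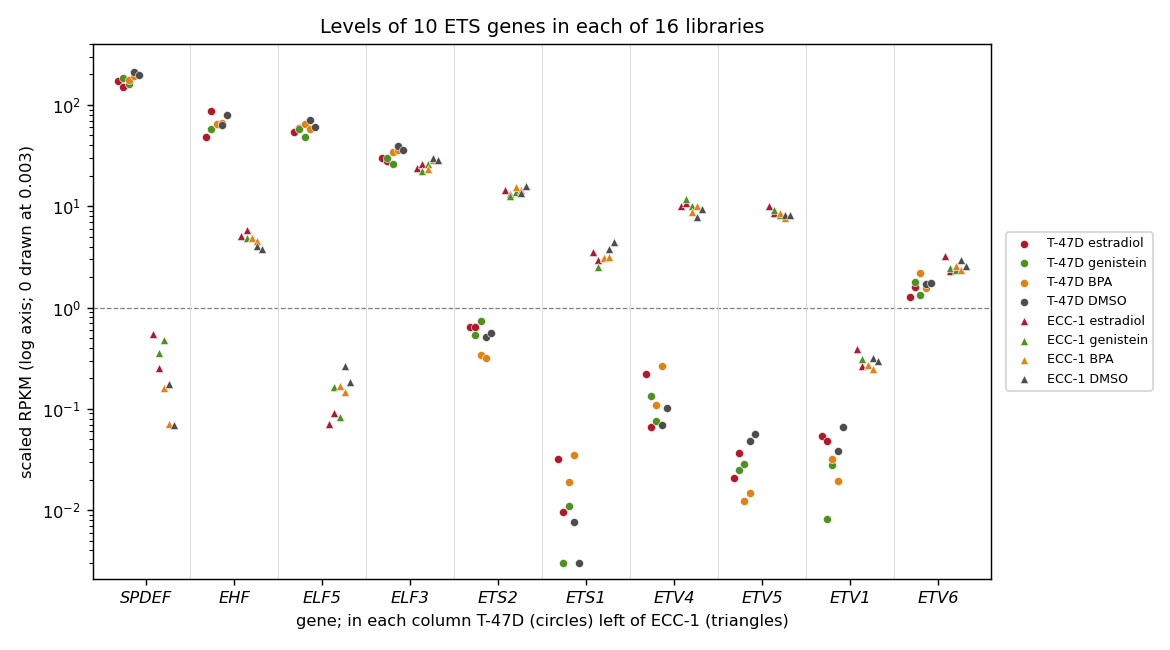
Scaled RPKM (log axis) of each ETS gene in each of the 16 libraries, with T-47D as circles left of ECC-1 as triangles and treatments by colour. The dashed line marks 1 scaled RPKM, and values of 0 are drawn at 0.003. SPDEF, EHF and ELF5 stand high in T-47D, ETS2, ETS1, ETV4 and ETV5 in ECC-1, while the 2 lines lie close together for ELF3 and ETV6.

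Set beside the rest of the family, SPDEF ranked first of 28 ETS genes in T-47D and above 98.4% of all tested genes, with EHF, ELF5 and ELF3 next in that order. EHF and ELF5 overlapped in their DMSO values, whereas SPDEF and ELF3 did not overlap with them. SPDEF alone made up 41.1% of the summed ETS level of 501 scaled RPKM in T-47D, EHF 14.4% and ELF5 13.2%. In ECC-1 the summed level was 178, ELF3 ranked first with 16.4% of it, ETS2 had rank 5 with 8.3%, ETV4 rank 8 with 4.8% and ETV5 rank 9 with 4.6%. ETV4 and ETV5 overlapped there, as did ETS1 and EHF, which came next among the 10. The 10 genes together held 76.7% of the family sum in T-47D and 40.5% in ECC-1. Both lines held a comparable number of family members at 1 scaled RPKM or more, 14 in T-47D and 16 in ECC-1.

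**Figure D2:**
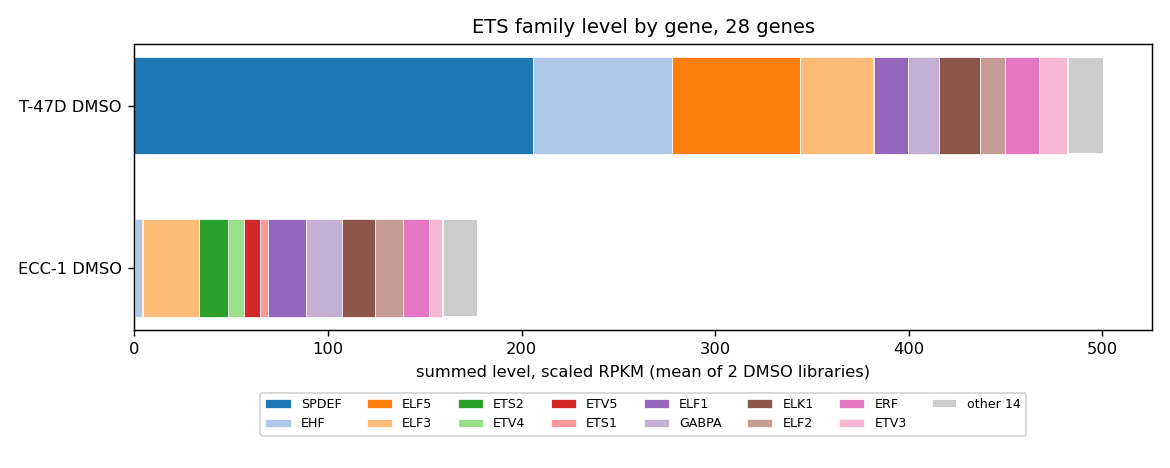
Summed level (scaled RPKM, mean of 2 DMSO libraries) of 28 ETS genes in T-47D and in ECC-1 cells, stacked by gene. The T-47D sum of 501 is mostly SPDEF, EHF, ELF5 and ELF3, and the ECC-1 sum of 178 is spread over many genes.

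Of the 18 other ETS genes, 10 entered the fit. In DMSO, 5 were higher in T-47D and 1 lower, and 4 did not pass, where 76.7% of all genes were called in either direction, with a median log2 difference of 0.35 against 0.04 over all tested genes. ELK3, a ternary complex factor that works with serum response factor, was the lower one (0.969 and 0.805 in T-47D, against 5.04 and 5.18 in ECC-1, log2 -2.02, limma adjusted p = 1.67e-08). ETV7, the closest relative of ETV6, had 1.026 and 1.121 scaled RPKM in the T-47D DMSO libraries, while the ECC-1 DMSO libraries both listed it at 0 (adjusted p = 1.86e-08). ETV3, a repressor, was higher in T-47D by 0.90 (adjusted p = 8.71e-06) and ELK4, another ternary complex factor, by 0.81 (adjusted p = 0.00148). The widely expressed ELK1, GABPA, ELF1 and ELF2 did not pass. None of the 10 passed in limma with any treatment, and at an unadjusted p under 0.05 there were 1 with estradiol in T-47D and 2 with estradiol in ECC-1, and 0 with genistein or BPA in either line.

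None of the 9 tested ETS genes passed the threshold with estradiol, genistein or BPA in either line. The 3 comparisons within a line share their 2 DMSO libraries. In T-47D, limma called 3.22% of all genes with estradiol, 0.803% with genistein and 0% with BPA. In ECC-1 it called 1.89%, 0.969% and 0.195% with the same treatments. At shares this low, 0 of 9 lies near the background. At an unadjusted p under 0.05 there were 2 of the 9 with estradiol, 2 with genistein and 1 with BPA in T-47D, and 2, 3 and 1 in ECC-1, against 14.8%, 5.79% and 0.839% of all genes in T-47D and 15.4%, 7.67% and 2.51% in ECC-1. The estradiol counts at the adjusted threshold were also 0 without both first estradiol libraries. ETV1, in the fit with no filter, ranged from -0.09 to 0.03 over the 6 comparisons. The median gene's 95% interval, with no adjustment, reached 0.332 to either side on the log2 scale.

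**Figure D3:**
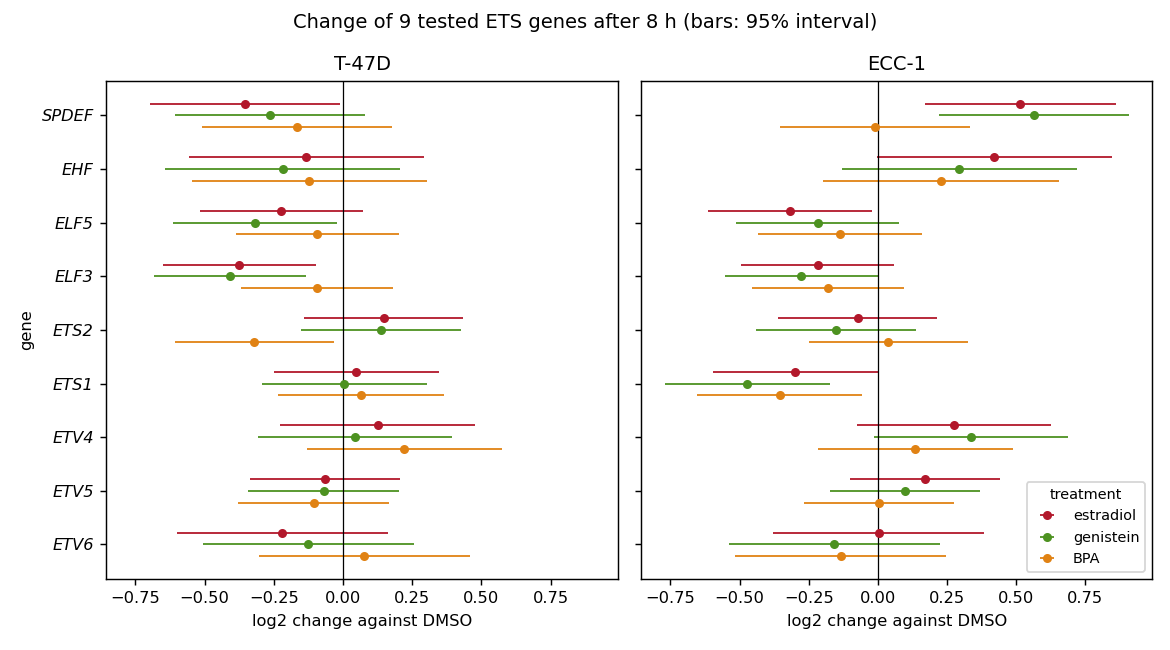
Log2 change of 9 ETS genes against DMSO in T-47D (left) and ECC-1 (right) after estradiol, genistein and BPA, with bars for the 95% interval of the limma fit. None passed the adjusted threshold; the farthest from 0 are SPDEF in ECC-1 at 0.52 with estradiol and 0.56 with genistein, and ETS1 in ECC-1 at -0.47 with genistein.

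SPDEF did not pass with any treatment in either line, and its estradiol and genistein values lay below DMSO in T-47D and above it in ECC-1. In T-47D it had 172 and 150.5 scaled RPKM with estradiol, 184 and 159.7 with genistein and 176 and 191 with BPA, against 212 and 199.9 with DMSO. All 6 treated T-47D libraries thus lay below both DMSO libraries, a pattern that 1.95% of tested genes showed. In ECC-1, at far lower levels, it had 0.543 and 0.252 with estradiol, 0.356 and 0.481 with genistein and 0.161 and 0.0712 with BPA, against 0.174 and 0.0693 with DMSO. The estradiol and genistein libraries lay above the DMSO libraries, as for 21.7% and 21.9% of tested genes, and the BPA libraries overlapped them.

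SPDEF's log2 changes in T-47D were -0.35 with estradiol (95% interval -0.70 to -0.01, limma adjusted p = 0.319), -0.26 with genistein and -0.17 with BPA (adjusted p = 1 for both). In ECC-1 they were 0.52 with estradiol (0.17 to 0.86, adjusted p = 0.143), 0.56 with genistein (0.22 to 0.91, adjusted p = 0.182) and -0.01 with BPA (adjusted p = 1). With a pseudocount of 0.1 the ECC-1 genistein change was 1.26 and passed (adjusted p = 0.0475). The ECC-1 values rest on 19 and 9 reads with estradiol, 16 and 19 with genistein and 7 and 4 with BPA, against 7 and 4 with DMSO. Without both first estradiol libraries the estradiol change was -0.45 in T-47D (adjusted p = 0.114) and 0.28 in ECC-1 (adjusted p = 0.488). Without the second ECC-1 estradiol library it was 0.75 and passed (adjusted p = 0.0123). The genistein change in ECC-1 kept its size of 0.56 and passed when both first estradiol libraries were left out of the shared estimate of spread (adjusted p = 0.0232).

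The difference between the lines was tested as an interaction, T-47D minus ECC-1. For estradiol limma called 1.73% of all genes and 0 of the 9 ETS genes, with 1 at an unadjusted p under 0.05 against 16.5% of all genes, which was SPDEF (log2 -0.87, 95% interval -1.35 to -0.38, adjusted p = 0.0748). It passed without the second T-47D estradiol library (-0.77, adjusted p = 0.0469) and without the second ECC-1 estradiol library (-1.11, adjusted p = 0.0094), and did not pass without both first ones (-0.73, adjusted p = 0.134). For genistein 0.586% of genes and 0 of the 9 were called, with 2 at an unadjusted p under 0.05 against 4.69% of all genes, SPDEF at -0.83 (-1.31 to -0.34, adjusted p = 0.221) and ETS1 at 0.48 (0.05 to 0.90, adjusted p = 0.840). SPDEF passed there without both first estradiol libraries (adjusted p = 0.0301). For BPA 0.0434% of genes and 0 of the 9 were called, and 0 of the 9 had an unadjusted p under 0.05, against 1.41% of all genes.

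ELF3 lay lower with every treatment in both lines, with no call. In T-47D it had 29.6 and 27.8 scaled RPKM with estradiol, 30.2 and 25.9 with genistein and 34.2 and 35.66 with BPA, against 39.1 and 35.67 with DMSO. In ECC-1 it had 23.97 and 26.1 with estradiol, 22.1 and 26.0 with genistein and 23.2 and 28.39 with BPA, against 29.9 and 28.44 with DMSO. All treated libraries lay below both DMSO libraries of their line, with 1 BPA library of each line only just below the lower DMSO library. This held for 48 of the 13827 tested genes (0.347%), and the pattern was noticed after the values were seen. In ECC-1 it rests on the scale factor. As deposited, the second ECC-1 BPA library had 29.92 RPKM, above the second ECC-1 DMSO library at 29.62. The log2 changes in T-47D were -0.37 with estradiol (95% interval -0.65 to -0.10, limma adjusted p = 0.160), -0.41 with genistein (-0.68 to -0.13, adjusted p = 0.311) and -0.09 with BPA (adjusted p = 1). In ECC-1 they were -0.22 (adjusted p = 0.424), -0.28 (adjusted p = 0.648) and -0.18 (adjusted p = 1). Without both first estradiol libraries the estradiol changes were -0.42 in T-47D and -0.16 in ECC-1.

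EHF moved with 1 library in T-47D. It had 48.5 and 87.7 scaled RPKM with estradiol, 58.1 and 65.1 with genistein and 64.8 and 66.9 with BPA, against 63.9 and 80.2 with DMSO. Its 2 estradiol libraries were the lowest and the highest of the 8 T-47D libraries. The estradiol change was -0.13 with all libraries (limma adjusted p = 0.802), 0.29 without both first estradiol libraries (adjusted p = 0.270) and -0.56 without the second T-47D estradiol library, where it passed (adjusted p = 0.0160). In ECC-1 EHF had 5.07 and 5.80 with estradiol, 4.84 and 5.02 with genistein and 4.81 and 4.57 with BPA, against 4.10 and 3.77 with DMSO. All 6 treated ECC-1 libraries lay above both DMSO libraries, as for 8.29% of genes, with changes of 0.42 for estradiol (95% interval -0.01 to 0.85, adjusted p = 0.327), 0.29 for genistein (adjusted p = 0.877) and 0.23 for BPA (adjusted p = 1). The ECC-1 estradiol change was 0.51 without both first estradiol libraries (adjusted p = 0.0778). Its estradiol interaction was -0.55 (adjusted p = 0.342), and -0.98 without the second T-47D estradiol library, where it passed (adjusted p = 0.0068). Without both first estradiol libraries it was -0.22 (adjusted p = 0.822).

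In ECC-1, ELF5, the neighbour of EHF, had 0.0701 and 0.0914 scaled RPKM with estradiol, 0.164 and 0.0827 with genistein and 0.170 and 0.146 with BPA, against 0.265 and 0.184 with DMSO. These values stand for 3 and 4 reads with estradiol, 9 and 4 with genistein and 9 and 10 with BPA, against 13 and 13 with DMSO. All 6 treated libraries lay below both DMSO libraries, as for 8.73% of genes. The changes were -0.32, -0.22 and -0.14 for the 3 treatments in that order, with limma adjusted p from 0.293 to 1. With a pseudocount of 0.1 the estradiol change was -0.84 and passed (adjusted p = 0.0448). In T-47D ELF5 had 54.1 and 59.0 with estradiol, 57.9 and 48.3 with genistein and 65.5 and 58.4 with BPA, against 71.3 and 61.1 with DMSO. The estradiol and genistein libraries lay below the DMSO libraries there, as for 16.4% and 18.5% of genes. The changes were -0.22 with estradiol (limma adjusted p = 0.489), -0.32 with genistein (adjusted p = 0.733) and -0.09 with BPA (adjusted p = 1). The estradiol change without both first estradiol libraries was -0.16 in T-47D and -0.29 in ECC-1.

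ETS1 in ECC-1 had 3.55 and 2.97 scaled RPKM with estradiol, 2.50 and 3.18 with genistein and 3.05 and 3.16 with BPA, against 3.79 and 4.46 with DMSO. All 6 treated ECC-1 libraries lay below both DMSO libraries here too, as for 8.73% of genes. The changes were -0.30 with estradiol (95% interval -0.60 to 0.00, limma adjusted p = 0.325), -0.47 with genistein (-0.77 to -0.17, adjusted p = 0.216) and -0.36 with BPA (-0.65 to -0.06, adjusted p = 1), and the estradiol change was -0.41 without both first estradiol libraries. In T-47D ETS1 stayed at 0 to 4 reads per library in all groups, too few to show a change. ETS2 in T-47D lay above both DMSO libraries with estradiol and below both with BPA, as did 16.9% and 10.2% of tested genes. It had 0.643 and 0.645 with estradiol, 0.540 and 0.743 with genistein and 0.340 and 0.316 with BPA, against 0.510 and 0.558 with DMSO. The BPA libraries were the lowest of the 8, with a change of -0.32 (95% interval -0.61 to -0.03, adjusted p = 1), against 0.15 with estradiol and 0.14 with genistein. In ECC-1 ETS2 ran from 12.5 to 15.96 over all 8 libraries, and its changes lay between -0.15 and 0.04. Its estradiol change was 0.15 in T-47D and -0.14 in ECC-1 without both first estradiol libraries.

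**Figure D4:**
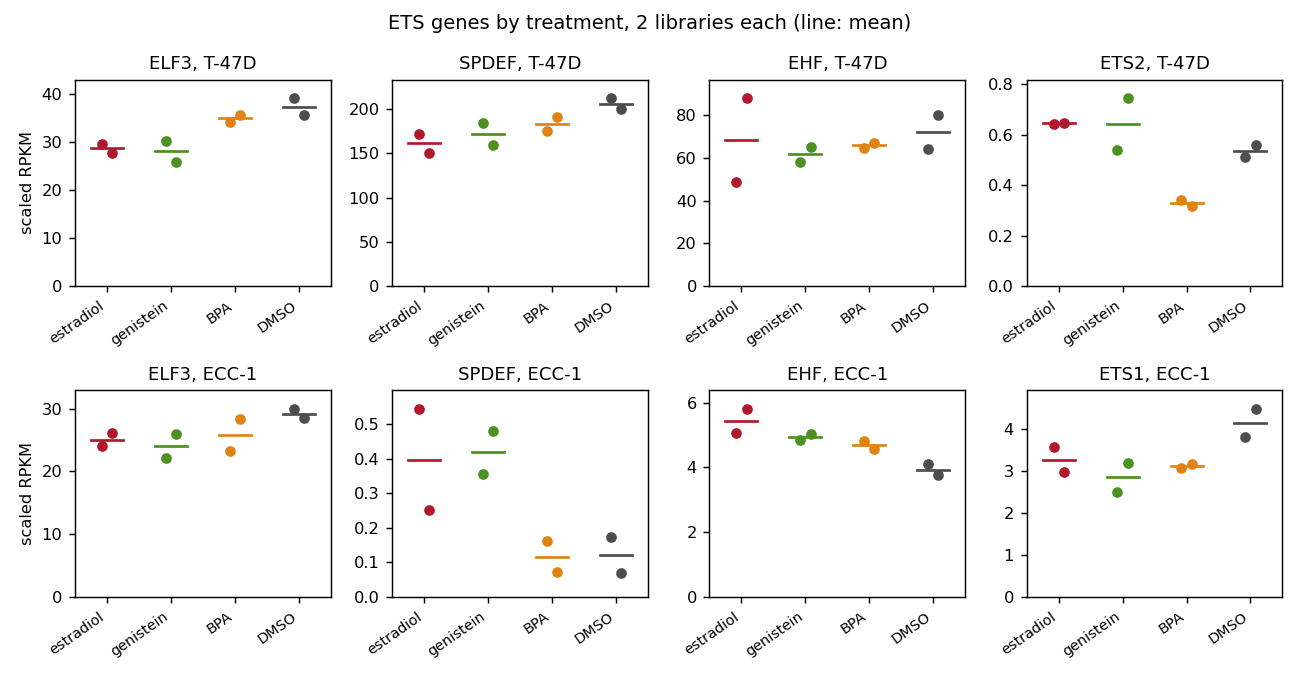
Scaled RPKM of 5 ETS genes by treatment, with 1 point per library and a line at the mean of 2 libraries; each panel has its own axis from 0. ELF3 lies below DMSO with all treatments in both lines, SPDEF lies below DMSO in T-47D and above it with estradiol and genistein in ECC-1, and the 2 T-47D estradiol libraries of EHF lie at 48.5 and 87.7.

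No gene of the PEA3 group passed with any treatment, nor did ETV6. In ECC-1 ETV4 had 10.0 and 10.8 scaled RPKM with estradiol, 11.8 and 9.97 with genistein and 8.69 and 10.1 with BPA, against 7.76 and 9.30 with DMSO. The estradiol and genistein libraries lay above both DMSO libraries, as did 21.7% and 21.9% of tested genes. The changes were 0.28 with estradiol (limma adjusted p = 0.426) and 0.34 with genistein (adjusted p = 0.690). The BPA libraries overlapped (0.14). ETV5 in ECC-1 had 9.99 and 8.51 with estradiol, 9.25 and 8.26 with genistein and 8.60 and 7.74 with BPA, against 8.11 and 8.16 with DMSO, with changes of 0.17, 0.10 and 0.00. In T-47D both genes rested on 1 to 12 reads per library, and their changes lay between -0.11 and 0.22. All 6 treated T-47D libraries lay below both DMSO libraries for ETV5, as for 1.95% of tested genes. This rests on 5 reads with estradiol, 4 with genistein and 2 with BPA in all, against 9 with DMSO. ETV6 ran from 1.26 to 2.22 over T-47D and from 2.29 to 3.25 over ECC-1 libraries, with changes between -0.22 and 0.08 and adjusted p from 0.608 to 1. Without both first estradiol libraries the estradiol changes were -0.05 in T-47D and 0.32 in ECC-1 for ETV4, -0.04 and 0.06 for ETV5, and -0.09 and -0.21 for ETV6.

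Genistein and BPA were given at the same dose and time, so the 2 compounds can be set against each other in 2 comparisons, 1 per line. In T-47D limma called 0.405% of all genes and 0 of the 9 ETS genes, with 2 at an unadjusted p under 0.05, against 4.33% of all genes. These were ETS2, at 0.46 for genistein minus BPA (95% interval 0.17 to 0.75, adjusted p = 0.372), and ELF3, at -0.31 (-0.59 to -0.04, adjusted p = 0.915). In ECC-1 it called 0.0434% of genes and 0 of the 9, with SPDEF alone at an unadjusted p under 0.05, against 1.49% of all genes (0.58, 95% interval 0.23 to 0.92, adjusted p = 0.989). The intervals of the other tested members span 0 in both lines, with bounds between -0.58 and 0.55. A p that misses the threshold does not show that the compounds act alike. Estradiol was given at another dose, so its values stand beside theirs with no test.

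Genes known as outputs and brakes of the ERK pathway, which the PEA3 genes belong to, held members on both sides of the line comparison. Of 15 tested of 16 listed, 5 were higher and 9 lower in T-47D in DMSO, against 39.6% higher and 37.1% lower of all genes, with a median log2 difference of -1.64 against 0.04 over all genes. EPHA4, an ephrin receptor, had 14.999 and 16.8 scaled RPKM in T-47D, against 0.0964 and 0.0567 in ECC-1 (log2 4.83, limma adjusted p = 4.23e-14). EPHA2, its relative, had 0.442 and 0.605 in T-47D, against 37.1 and 47.2 in ECC-1 (-5.38, adjusted p = 9.67e-13). The Sprouty inhibitors SPRY4 (-3.72, adjusted p = 9.35e-12) and SPRY2 (-3.38, adjusted p = 2.45e-11) were lower in T-47D too. EPHA2, SPRY4 and SPRY2, of the 9 lower genes, thus lay on the side of ETV4 and ETV5. EPHA4 and the rest of the 5 higher genes lay on the other side. A link to the PEA3 genes was not tested.

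With estradiol, 3 genes of the ERK list rose and 2 fell in T-47D, against 2.1% and 1.11% of all genes, and 3 rose in ECC-1, against 1.42%. Without both first estradiol libraries 1 rose in T-47D and 0 in ECC-1. PHLDA1, which encodes a pleckstrin-homology-like protein, had 9.48 and 10.3 scaled RPKM with estradiol in T-47D and 8.21 and 8.43 with genistein, against 4.79 and 4.09 with DMSO. Its changes were 1.07 (limma adjusted p = 0.000393) and 0.84 (adjusted p = 0.00721). The estradiol call was lost with array weights, and the genistein call was lost without the second T-47D genistein library (0.82) or the second T-47D DMSO library (0.74). Genistein exceeded BPA there by 0.90 (adjusted p = 0.00847), a call lost when any of these 4 libraries was left out (0.84 to 0.95). In ECC-1 the early-response gene EGR1 had 15.8 and 12.3 with estradiol and 14.99 and 13.0 with genistein, against 5.99 and 3.81 with DMSO. With BPA it had 13.4 and 11.6, also above both DMSO libraries, as for 15.3% of tested genes, with no call. Its changes were 1.45 with estradiol (adjusted p = 0.0154) and 1.45 with genistein (adjusted p = 0.0215). Both calls were lost with a pseudocount of 0.1, with no filter and without the second ECC-1 DMSO library (1.15 and 1.16). The estradiol call was also lost with array weights and without the first ECC-1 estradiol library (1.27). The genistein call was also lost without either genistein library (1.35 and 1.55). In the estradiol interaction limma called 0 of the 15 tested genes of the list, against 1.73% of all genes. At an unadjusted p under 0.05 there were 10, against 16.5% of all genes.

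The known repressors and protein-turnover partners of ETV1, ETV4 and ETV5 were measured as transcripts only. All 9 were tested, and 6 were higher and 2 lower in T-47D in DMSO, against 76.7% of all genes called in either direction, with a median log2 difference of 0.88 against 0.04 over all genes. ATXN1, a partner of the repressor CIC, had 7.88 and 10.8 scaled RPKM in T-47D, against 0.459 and 0.645 in ECC-1 (log2 3.22, limma adjusted p = 1.04e-10). DDB1, the adaptor of a cullin ubiquitin ligase, was higher by 1.27 (adjusted p = 3.12e-07) and RFWD2, the COP1 ligase, by 0.88 (adjusted p = 8.49e-06). TRIB2, a pseudokinase that recruits COP1, had 0.0279 and 0 in T-47D, against 5.25 and 4.84 in ECC-1 (adjusted p = 3.95e-12). With estradiol ATXN1 fell in T-47D to 4.29 and 5.17, against 7.88 and 10.8 with DMSO (-0.90, adjusted p = 0.00622), the 1 call of this list with any treatment against DMSO. That call was lost with array weights (-0.90), without the first T-47D estradiol library (-0.78) and without the second T-47D DMSO library (-0.69). In the estradiol interaction, T-47D minus ECC-1, ATXN1 alone of the 9 was lower (-1.13, limma adjusted p = 0.0226), against 0.839% of all genes. The interaction call was lost in 7 of 25 alternatives, among them both first estradiol libraries left out (-0.84).

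Genes of secretory epithelium linked to the epithelial ETS factors were measured beside them. Of 15 tested of 18 listed, 9 were higher and 3 lower in T-47D in DMSO, against 76.7% of all genes called in either direction, with a median log2 difference of 2.08 against 0.04 over all genes. MUC1, a membrane mucin, had 210 and 252 scaled RPKM in T-47D, against 1.56 and 1.14 in ECC-1 (log2 6.97, limma adjusted p = 7.13e-15). AGR2, a disulfide isomerase of secretory cells, was higher in T-47D by 6.05 (adjusted p = 1.82e-13) and CREB3L4, a membrane-bound transcription factor, by 4.21 (adjusted p = 2.12e-13). LCN2, an iron-scavenging lipocalin, was lower in T-47D by the fitted log2 difference of -4.70 (adjusted p = 3.60e-12).

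In T-47D, 2 genes of the secretory list rose with estradiol, against 2.1% of all genes, also without both first estradiol libraries. TFF1, a trefoil peptide, had 4.40 and 3.97 scaled RPKM with estradiol, against 0.392 and 0 with DMSO (limma adjusted p = 6.13e-05). TFF1 entered the fit through T-47D estradiol and genistein libraries only, as no DMSO, BPA or ECC-1 library reached 1 RPKM. AGR3, a relative of AGR2, had 42.7 and 40.0 with estradiol, against 15.5 and 11.9 with DMSO (log2 1.57, adjusted p = 0.000102). Both also passed with genistein, TFF1 at an adjusted p of 0.0382 and AGR3 at 0.0356. The genistein call of TFF1 was lost in 13 of 25 alternatives and that of AGR3 in 15 of 26, among them each T-47D DMSO library left out for AGR3 (1.05 and 0.68), the second for TFF1 (1.02), the first T-47D genistein library for both (0.71 for AGR3 and 0.96 for TFF1) and the second for AGR3 (1.02). The rest of these losses came at an unchanged size with libraries of other groups left out, or with other scalings, pseudocounts or filters. In ECC-1 the gel-forming mucin MUC5B had 7.60 and 6.90 with estradiol, 5.37 and 5.70 with genistein and 3.10 and 2.60 with BPA, against 0.832 and 0.738 with DMSO. MUC5B entered the fit through treated ECC-1 libraries only, as no DMSO or T-47D library reached 1 RPKM. Its changes were 2.59, 2.23 and 1.38, with adjusted p of 2.19e-07, 1.09e-06 and 0.000487, and they passed in all 25 alternatives. With estradiol AGR2 (-0.91) and CREB3L4 (-0.60) fell in ECC-1. Neither passed with array weights, without both first estradiol libraries (-0.69 and -0.48) or without the first ECC-1 DMSO library (-0.70 and -0.60), nor CREB3L4 without the second (-0.60). In the estradiol interaction, T-47D minus ECC-1, 4 of the 15 tested genes were higher and 1 lower, against 0.89% and 0.839% of all genes. The KRT18 call there was lost in 11 of 26 alternatives and the AGR2 call in 5 of 26.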

How the data were processed

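Each library came as 1 table of RPKM for 32062 RefSeq transcripts, made by the authors. The submitters' processing notes name Bowtie and hg19. Bowtie's version, and how reads shared by transcripts or by several places were counted, are not given in the sources used here. Rows of 1 gene may share reads: the rows of ETV1 (7), ETS1 (3), ETV4, ELF3 and ELF5 (2 each) differed by at most 1.26-fold in mean level. For each symbol the row with the highest mean over all libraries was used. The scale factor of a library was its median ratio to the geometric mean of all libraries, taken over 7547 genes at 5 RPKM or more throughout. No 2 libraries were identical. In place of counts, which the files lack, depth came from the steps of low RPKM values (17.31 to 29.39 M reads). Of values under 10 reads, 61.4 to 63.7% were at most 0.1 read from a whole number. At a depth fixed beforehand 20% would be so by chance, but the depth was fitted to these same values. Transcript lengths for these steps came from a GENCODE annotation of another build, so no coordinates of the files are given.

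The test was limma 3.58.1 (R 4.3.3) on log2(scaled RPKM + 0.5) with 8 group means over 16 libraries, eBayes with a mean-variance trend (8 residual and 6.9 prior degrees of freedom) and Benjamini-Hochberg adjustment within each of 12 comparisons over 13827 genes. It was tested on simulated data. The estradiol replicates varied more (SD of their log2 difference 0.411 in T-47D and 0.343 in ECC-1) than the other groups (0.170 to 0.242), while the fit assumes 1 spread. Replicate numbers come from the labels, which do not say that a number pairs libraries across groups. The members, the 4 gene lists and the motifs were chosen with earlier results of these data known. All members are named. Of each list up to 4 genes are named for the line comparison in DMSO, by smallest adjusted p. With treatments some called genes are left out. Among them is FOSL1, the ERK-list gene with the smallest adjusted p with estradiol in ECC-1. Promoters are from RefSeq (GRCh38.p14). Alternatives were other scalings, pseudocounts of 0.1 and 1, other filters, summed rows, the replicate block, array weights, fits on 1 line, and libraries left out.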

Additional observations from a re-analysis of the deposited data

How the results depend on the processing

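The 12 comparisons of 9 genes gave 108 values, and the alternatives 2844 more: 2770 kept direction and side of the threshold, 6 lost and 14 gained a call, 54 values without a call changed sign, and 0 calls reversed. Main counts of called ETS genes were 0 with every treatment and 9 between the lines. With a pseudocount of 0.1 there was 1 with estradiol in ECC-1 (ELF5, -0.84) and 1 with genistein in ECC-1 (SPDEF, 1.26). Array weights gave 2 with genistein in ECC-1 (SPDEF, 0.56, and ETS1, -0.47), 1 for genistein against BPA in ECC-1 and 1 for the genistein interaction (both SPDEF). Without both first estradiol libraries there was 1 with genistein in ECC-1 and 1 for the genistein interaction (both SPDEF). Quantile normalization gave 1 for the estradiol interaction (SPDEF, -1.02). With libraries left out in turn, the count ran from 0 to 1 with estradiol in T-47D, from 0 to 1 with estradiol in ECC-1 and from 0 to 2 for the estradiol interaction, each through leaving out a second estradiol library. The cause was not tested.

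With the replicate block the count of called ETS genes was 0 in each of the 11 other comparisons and 9 between the lines, as without it. Correlations of same-numbered libraries' deviations ran from -0.22 to 0.41, so the numbers were not taken as pairs. Counts over all genes moved more: with estradiol, 445 genes in T-47D against 3131 without its second estradiol library, 262 in ECC-1 against 2162 without its second, and with genistein in ECC-1 134 against 841 with array weights. Depth limits ETS1, ETV1, ETV4 and ETV5 in T-47D and SPDEF and ELF5 in ECC-1, which rest on at most 19 reads per library.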
